A study of Sus scrofa with 4 samples.

Results

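*NREP*, *FBLN1*, *SNAI2*, *TWIST1*, *SH3PXD2B* and *IGFBP7* were grouped as genes of the extracellular matrix and of mesenchymal cells. They were followed in the longissimus dorsi (LD) muscle as a readout of its connective tissue cells, although not all of them followed the fibroblast markers closely (below). They are 6 of the 22658 features in the files, chosen by name and matched by their Ensembl identifiers, and all 6 had counts in all 12 libraries. The study names them, or lists them among its genes, from these same samples, so that their changes are not independent evidence of a direction.

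The samples came from castrated male Laiwu pigs, a Chinese breed with much intramuscular fat, wild type in genotype and reared alike without treatment, which differ in age. There were 3 pigs at each of the labelled ages 60, 120, 240 and 400 d, and each pig gave 1 library of bulk RNA from LD muscle. The whole-number fragment counts summed to between 9713813 and 13325327 per library. Levels are given as FPKM, fragment counts scaled by transcript length and by the mapped fragments of the library, so that they can be compared between genes.

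The age of a library is its label, and the lists that accompany the study disagree with the labels and with each other. In the list of differentially expressed genes, what is called 60 d matched the files labelled 400 d, 120 d those labelled 240 d, 240 d those labelled 60 d and 400 d those labelled 120 d. Over 200 to 866 genes, matched sets differed by a median of no more than 0.0200 in absolute log2, against 0.404 or more for any unmatched pair. In a further list, which sets LD muscle at 120 d against another breed, the 3 Laiwu libraries were each closest to 1 of the 3 libraries labelled 120 d, with r across 677 genes between 0.961 and 0.974 and between 0.923 and 0.930 for the next closest library. The sequencing summary that accompanies the study also runs with the labels, in which library is the deepest and in the order of depth within the youngest age. The labels were kept here. The test over the 4 ages is the same under any assignment, while each direction from a younger to an older age holds for the labelled ages and turns for all 10 changes that passed the test when the ages of the first list are used.

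Skeletal muscle fibres are wrapped in connective tissue, the endomysium, perimysium and epimysium, whose collagens, glycoproteins and proteoglycans are made by fibroblasts and fibro-adipogenic progenitors. The latter are interstitial mesenchymal cells that can give rise to fibroblasts and to the adipocytes between the fibres. SNAI2 and TWIST1 are transcription factors known for keeping cells in a mesenchymal state, FBLN1 and IGFBP7 are secreted proteins found in the matrix and around vessels, SH3PXD2B is an adaptor of podosomes, the contacts with which cells degrade matrix, and NREP is a small intracellular protein linked to TGF-beta signalling and to myofibroblasts. In bulk RNA, fewer cells of a type and less RNA per cell cannot be told apart.

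The 6 genes spanned a wide range of levels. Averaged over the 12 libraries, *IGFBP7* had an FPKM of 233 and *NREP* of 123, above 98.3% and 97.2% of the 18747 features with any count. *FBLN1* had a mean FPKM of 12.8, *TWIST1* of 2.29, *SNAI2* of 1.77 and *SH3PXD2B* of 0.673. The highest library exceeded the lowest by 21.4-fold in FPKM for *NREP*, by 19.3-fold for *SH3PXD2B*, by 12.1-fold for *SNAI2*, by 8.94-fold for *FBLN1*, by 8.88-fold for *TWIST1* and by 4.80-fold for *IGFBP7*. The counts behind them differ in depth. *NREP* had 360 to 6275 counts per library and *IGFBP7* 1057 to 4265, whereas *SNAI2* had 3 to 33 and *TWIST1* 3 to 22, at or near the floor of 3 counts.

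**Figure D1:**
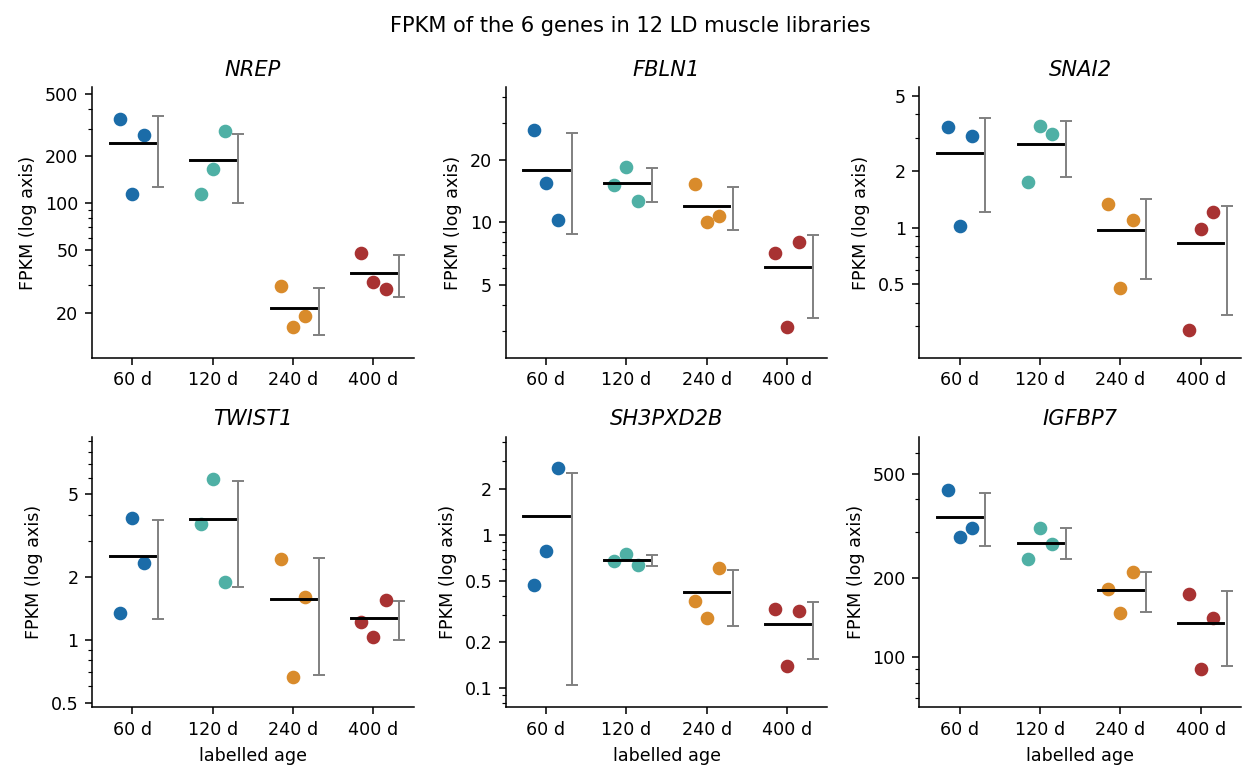
FPKM (log axis) of each gene against the labelled age, with 1 point per library in the order of the files, the mean of the 3 libraries as a black line and the SD as a grey bar. All 6 libraries labelled 60 and 120 d lie above all 6 labelled 240 and 400 d for *NREP* and *IGFBP7*, and the sides overlap for the other genes.

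Over the 4 ages, *NREP*, *IGFBP7* and *SH3PXD2B* differed and *FBLN1*, *SNAI2* and *TWIST1* did not pass the test. The edgeR quasi-likelihood test with Benjamini-Hochberg adjustment over all 13314 features tested gave an adjusted p of 0.0026 for *NREP*, 0.0153 for *IGFBP7*, 0.0434 for *SH3PXD2B*, 0.0582 for *FBLN1*, 0.0841 for *SNAI2* and 0.167 for *TWIST1*. So 3 of the 6 genes passed, against 19.8% of all features, and at an adjusted p of 0.01 or below 1 passed, *NREP*, against 3.93%. On log2(FPKM + 0.1), the exact permutation test over the 15400 ways to split 12 libraries into 4 sets of 3 gave p = 0.0018 for *NREP*, p = 0.0016 for *IGFBP7*, p = 0.0149 for *FBLN1*, p = 0.0318 for *SH3PXD2B*, p = 0.0692 for *SNAI2* and p = 0.143 for *TWIST1*. *SH3PXD2B* was close to the threshold in edgeR. Its adjusted p was 0.0568 with library totals and 0.115 in limma on log2(FPKM + 0.1), and when any 1 library except libraries 1 and 2 of 60 d was left out it was between 0.0560 and 0.0967. *FBLN1* passed without library 3 of 60 d, with an adjusted p of 0.0325, and *SNAI2* without library 2 of 60 d, with 0.0474. The low count genes entered the test through the ages at which they were high, *SNAI2* through 60 and 120 d and *TWIST1* through 120 d alone, since a feature needed a mean of 10 counts at any age.

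*NREP* (ENSSSCG00000025831, chr2:122373478-122393187 on the plus strand of Sscrofa10.2) showed the widest separation. Its FPKM was 345, 115 and 273 in the 3 libraries labelled 60 d, and 115, 165 and 289 in those labelled 120 d. It was 29.5, 16.1 and 18.9 in those labelled 240 d, and 47.9, 31.2 and 28.2 in those labelled 400 d. The libraries of 60 and 120 d lay between 115 and 345, and those of 240 and 400 d between 16.1 and 47.9, with no overlap. The mean of the first 6 libraries was 7.57 times that of the others. Separation of this kind, with all 6 of 60 and 120 d on top, was seen in 6.69% of all features tested.

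Between 120 and 240 d, the level of *NREP* fell from a mean FPKM of 189 ± 89.5 to 21.5 ± 7.10 (SD, n = 3), a log2 change of -3.11 ± 0.46 (SE) with an adjusted p of 0.0217 in edgeR. It was 3.50 ± 0.46 lower on the log2 scale at 240 d than at 60 d (adjusted p = 0.0043, edgeR), 2.76 ± 0.45 lower at 400 d than at 60 d (adjusted p = 0.0027, edgeR) and 2.37 ± 0.44 lower at 400 d than at 120 d (adjusted p = 0.0114, edgeR). The levels of the neighbours 60 and 120 d overlapped, as did those of 400 and 240 d, and their exact permutation p was 0.6 and 0.2, where 3 against 3 libraries cannot give less than 0.1. The call between 120 and 240 d was lost without library 3 of 120 d (log2 change -2.66, adjusted p = 0.0508), library 2 of 240 d (-2.94, adjusted p = 0.0760) or library 3 of 240 d (-3.05, adjusted p = 0.0910), and that between 120 and 400 d without library 2 of 400 d (-2.28, adjusted p = 0.0555). With the ages of the list of differentially expressed genes, the 120 to 240 d change of *NREP* becomes a log2 increase of 3.50, that of *IGFBP7* one of 0.92.

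*IGFBP7* (ENSSSCG00000008913), whose product binds insulin-like growth factors weakly and lies in vascular basement membranes, was the most abundant of the 6 genes. Its FPKM was 432, 287 and 311 at 60 d, and 237, 312 and 271 at 120 d. It was 182, 148 and 211 at 240 d, and 175, 90.1 and 141 at 400 d. The lowest library of 60 and 120 d was thus above the highest of 240 and 400 d, by a narrower margin than for *NREP*, and the means of the 2 sides differed by 1.96-fold. The means stood in the order of the labelled ages, from 343 ± 77.7 through 273 ± 37.3 and 180.1 ± 31.6 to 135 ± 42.6 (SD, n = 3). Neighbouring ages did not pass the test, and the libraries of 120 and 240 d did not overlap, with an exact permutation p of 0.1. The log2 change was -0.92 ± 0.26 from 60 to 240 d (adjusted p = 0.0412, edgeR), -1.33 ± 0.26 from 60 to 400 d (adjusted p = 0.0055, edgeR) and -1.01 ± 0.26 from 120 to 400 d (adjusted p = 0.0280, edgeR). The first of these was lost in 11 of 20 alternatives, and its log2 change then stayed between -0.72 and -1.03. The last was lost without library 2 or 3 of 120 d or library 2 or 3 of 400 d, with an adjusted p between 0.0548 and 0.105. The locus of *IGFBP7*, chr8:59064675-59139438 on the minus strand of Sscrofa10.2, overlaps that of *POLR2B* on the plus strand (59014046 to 59067819), and the library kit does not mark the strand, so that fragments of the shared stretch cannot be assigned. The loci of the other 5 genes overlap no other feature of the files.

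*FBLN1* (ENSSSCG00000000010, chr5:1071070-1158802, minus strand) encodes fibulin-1, a calcium-binding glycoprotein of basement membranes and elastic fibres. Its FPKM was 27.9, 15.4 and 10.3 at 60 d, and 15.1, 18.5 and 12.7 at 120 d. It was 15.2, 10.03 and 10.7 at 240 d, and 7.13, 3.12 and 8.03 at 400 d. The libraries of 400 d were below every other library, while the 9 libraries of the other ages overlapped. Between 240 and 400 d, with no overlap and an exact permutation p of 0.1, the log2 change was -0.96 ± 0.39 with an adjusted p of 0.529 in edgeR. *FBLN1* was lower at 400 d than at 60 d by a log2 change of -1.52 ± 0.39 (adjusted p = 0.0176, edgeR) and lower than at 120 d by -1.30 ± 0.39 (adjusted p = 0.0454, edgeR). Library 1 of 60 d, at 27.9, and library 2 of 400 d, at 3.12, bore on the first. Its adjusted p was 0.0587 without the former, with a log2 change of -1.06, and 0.0601 without the latter, with -1.20. With only the 2 ages in the fit it was 0.0612, with -1.49. The second was lost without any 1 of 10 of the 12 libraries, with an adjusted p between 0.0524 and 0.144.

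*SH3PXD2B* (ENSSSCG00000027378, chr16:56137621-56228713, plus strand) encodes TKS4, an SH3 domain adaptor of podosomes that is also known for a role in the formation of fat cells. Its FPKM was 0.469, 0.780 and 2.71 at 60 d, and 0.671, 0.748 and 0.636 at 120 d. It was 0.372, 0.287 and 0.612 at 240 d, and 0.327, 0.140 and 0.318 at 400 d. Library 3 of 60 d, at 2.71, stood above every other library, of which the next was at 0.780, and the SD at 60 d was 92.0% of the mean. The libraries of 120 d lay above those of 240 d without overlap, at a log2 change of -0.67 ± 0.56 and an adjusted p of 0.453 in edgeR. The log2 change from 60 to 400 d was -2.31 ± 0.58 (adjusted p = 0.0159, edgeR). Without library 3 of 60 d it was -1.24 with an adjusted p of 0.0570, and without library 2 of 400 d -2.03 with an adjusted p of 0.0669. The call was also lost with only the 2 ages in the fit (-2.29, adjusted p = 0.0576) and in limma on log2(FPKM + 1), a scale that shrinks the change of a gene this low (-0.76, adjusted p = 0.0649).

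*SNAI2* (ENSSSCG00000026570, chr4:86680287-86682763, plus strand) and *TWIST1* (ENSSSCG00000015370, chr9:97328124-97329026, minus strand), the transcription factors, had the lowest counts and passed no test between ages. The FPKM of *SNAI2* was 3.42, 1.03 and 3.07 at 60 d, and 1.74, 3.47 and 3.13 at 120 d. It was 1.33, 0.482 and 1.10 at 240 d, and 0.286, 0.985 and 1.20 at 400 d. Apart from library 2 of 60 d, the libraries of 60 and 120 d were above all those of 240 and 400 d. The log2 change of *SNAI2* was -1.50 ± 0.59 from 120 to 240 d (adjusted p = 0.130, edgeR) and -1.76 ± 0.60 from 120 to 400 d (adjusted p = 0.0684, edgeR), with no overlap of the libraries in either. The FPKM of *TWIST1* was 1.35, 3.85 and 2.35 at 60 d, and 3.59, 5.90 and 1.90 at 120 d. It was 2.46, 0.665 and 1.61 at 240 d, and 1.21, 1.03 and 1.56 at 400 d. The libraries of 120 and 240 d overlapped, and those of 400 d were below all of 120 d. The log2 change of *TWIST1* was -1.17 ± 0.54 from 120 to 240 d (adjusted p = 0.185, edgeR) and -1.49 ± 0.55 from 120 to 400 d (adjusted p = 0.0889, edgeR). With 3 to 8 counts of *TWIST1* in each library of 240 and 400 d, a change of this size was at the limit of what the depth can show.

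Counted by pair of ages, the calls among the 6 genes lay between the 2 younger and the 2 older labelled ages. From 120 to 240 d, 1 of the 6 passed the test, against 5.12% of all features. From 60 to 240 d, 2 passed, against 11.3%. From 60 to 400 d, 4 passed, against 23.5%, and from 120 to 400 d, 3 passed, against 13.9%. All were lower at the older labelled age, where the features lower at the older age made up 2.91%, 5.83%, 12.7% and 8.32% of those tested in the same 4 pairs. With library totals in place of TMM scaling, the lower features were 418 of 550 calls from 120 to 240 d in place of 388 of 682, and 1179 of 1531 from 120 to 400 d in place of 1108 of 1847. From 60 to 240 d they were 472 of 1123 in place of 776 of 1509, and from 60 to 400 d 1377 of 2717 in place of 1692 of 3124.

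Between 60 and 120 d and between 240 and 400 d, 0 of the 6 genes and 0 of 13314 features (0%) passed in edgeR. At an unadjusted p under 0.05 there were 1384 and 1176 features, among them 0 and 1 of the 6 genes, the latter *FBLN1*. DESeq2 called 70 and 58 features and 0 of the 6 genes, limma on log2(FPKM + 0.1) called 0, and edgeR called 1 and 0 features with library totals and 2 and 0 without the count filter. From 60 to 120 d the log2 changes of the 6 genes ran from -0.95 ± 0.54 for *SH3PXD2B* to 0.57 ± 0.52 for *TWIST1*. From 240 to 400 d, *NREP* stood at 0.74 ± 0.43 and the others between -0.96 ± 0.39 for *FBLN1* and -0.27 ± 0.64 for *SNAI2*.

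Counted by libraries without overlap, lower at the older age, there were 0 of the 6 genes from 60 to 120 d, against 5.6% of all features, and 1, *FBLN1*, from 240 to 400 d, against 9.13%. There were 4 from 120 to 240 d, against 18%, namely *NREP*, *SNAI2*, *SH3PXD2B* and *IGFBP7*. There were 2 from 60 to 240 d, *NREP* and *IGFBP7*, against 17.2%, 4 from 60 to 400 d against 20.9%, and all 6 from 120 to 400 d against 21.6%. *SNAI2* and *TWIST1* had entered the test through the ages at which they were high, so that nothing is read from their place in these counts. At an adjusted p of 0.01 or below and an absolute log2 change of at least 1, *NREP* passed from 60 to 240 d, against 0.841% of features, and *NREP* and *IGFBP7* from 60 to 400 d, against 6.26%. None of the 6 did so from 120 to 400 d, against 1.16%.

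**Figure D2:**
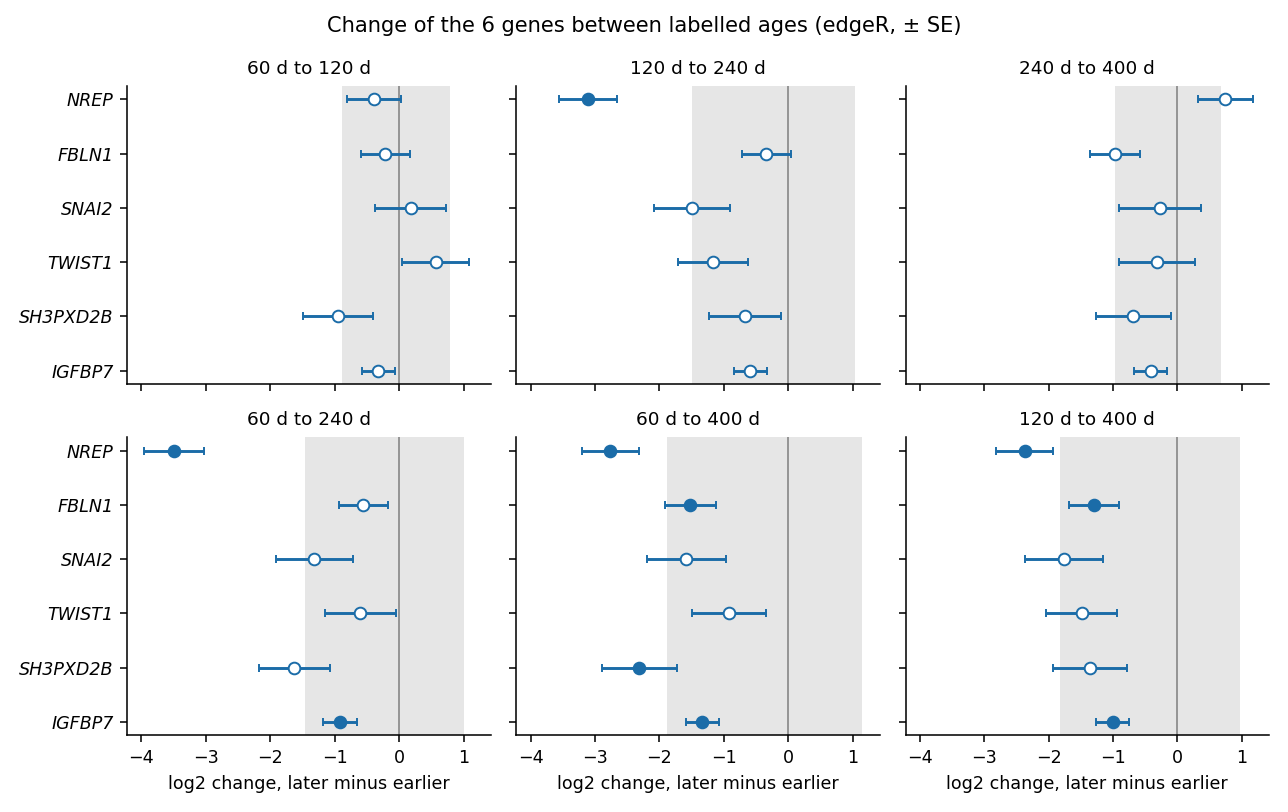
Log2 change between labelled ages, later minus earlier, in edgeR with its SE, for each gene and pair of ages. Filled points passed the test, and the grey band spans the 5th to the 95th percentile of all features tested. *NREP* lies left of the band in the 4 pairs that join a younger with an older side, at -3.11 from 120 to 240 d, and right of it from 240 to 400 d. Also left of it are *SH3PXD2B* from 60 d to each later age, *SNAI2* from 120 to 240 d and *FBLN1* from 240 to 400 d.

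Many other matrix genes were lower at 400 d than at 60 d. The lists were set by function and exclude the 6 genes, a gene was counted once per list, and only genes with a symbol in the name table could be matched. Counts of genes lower or higher at 400 d are of those that passed the test. The list counts below stand beside 19.8% of all features tested that differed over the 4 ages. From 60 to 400 d, 12.7% of all features were lower at 400 d, and 1432 of 13314 were higher. Of 11 fibrillar and associated collagens tested, 9 differed over the 4 ages and 10 were lower at 400 d than at 60 d, with a median log2 change of -1.65 beside -0.07 over all features. *COL5A1*, which with collagen I and III makes up fibrils, had a mean FPKM of 56.4 ± 24.4, 49.6 ± 5.92, 22.7 ± 4.68 and 13.5 ± 6.22 in ascending order of labelled age (SD, n = 3), a log2 change from 60 to 400 d of -2.10 (adjusted p = 0.0034, edgeR). *COL5A3* changed by -1.46 and *COL6A2*, of the microfibrils around fibres, by -1.65. Of 10 basement membrane genes, 7 differed over the 4 ages and 8 were lower at 400 d, with a median of -1.27. *COL4A2* changed by -1.93, *NID1* by -1.67 and *HSPG2*, the proteoglycan perlecan, by -1.56.

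Of 9 genes that process and cross-link collagen, 6 differed over the 4 ages and 6 were lower at 400 d than at 60 d, with a median log2 change of -1.51. Among them, *P4HA1* and *P4HA2*, subunits of the enzyme that hydroxylates proline in collagen, changed by -1.97 and -1.62, and *PLOD1*, which hydroxylates lysine, by -1.29. Of 9 matrix proteases and inhibitors, 5 differed and 5 were lower at 400 d, with *TIMP1* at -2.97 and *ADAMTS2* at -2.14. Among the relatives of *FBLN1*, 7 of 20 matrix glycoproteins and proteoglycans differed over the 4 ages and 10 were lower at 400 d, among them *FBLN2*, at -1.15, *ELN*, elastin, at -1.69 and *ASPN* at -2.05. In these 3 lists and the 2 before them, 0 genes passed the test as higher at 400 d than at 60 d. The counts over the 4 ages depended on single libraries, most often on library 2 of 400 d, the lowest in the fibroblast markers. Without it, 4 of the 11 collagens, 1 of the 20 glycoproteins and proteoglycans, 4 of the 9 collagen-processing genes and 3 of the 9 proteases and inhibitors passed, while 6 to 8 basement membrane genes passed with any 1 library left out. For the glycoproteins and proteoglycans that range was 1 to 10.

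Of 7 further mesenchymal transcription factors, 3 differed over the 4 ages, *TWIST2*, *PRRX2* and *MEOX1*, and the list's median log2 change from 60 to 400 d was -0.38. *TWIST2*, the paralog of *TWIST1*, changed by -2.67 ± 0.64 (SE), and *PRRX2* by -2.26. *TWIST2* was low throughout, with a mean FPKM of 1.25 ± 0.452 at 60 d and 0.180 ± 0.119 at 400 d (SD, n = 3). Its adjusted p over the 4 ages was 0.0471 in edgeR. *MEOX1*, with 2.78 ± 0.448, 6.92 ± 0.763, 1.78 ± 1.34 and 1.82 ± 0.725 FPKM in ascending order of labelled age (SD, n = 3), was highest in the 120 d libraries. With any 1 library left out, 0 to 2 of these factors passed over the 4 ages. *ZEB1*, a repressor of epithelial genes, stood at a log2 change of 0.51 with an adjusted p of 0.138 in edgeR. Of 18 TGF-beta pathway genes, 6 differed over the 4 ages, with 5 lower and 3 higher at 400 d than at 60 d. The ligand *TGFB1* changed by -1.45, whereas the activin receptor *ACVR2B* rose by 1.84. *MSTN*, myostatin, which restrains muscle growth, had a mean FPKM of 2.65 ± 0.701, 10.5 ± 6.67, 2.08 ± 1.46 and 5.92 ± 0.875 in ascending order of labelled age (SD, n = 3) and fell by 2.26 on the log2 scale from 120 to 240 d (adjusted p = 0.0340, edgeR).

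Of the 7 tested genes of the insulin-like growth factor axis, 2 differed over the 4 ages, 28.6% of the list beside 19.8% of all features. They were the binding proteins *IGFBP4*, with a log2 change from 60 to 400 d of -2.37, and *IGFBP6*, with -2.01. *IGFBP1* was listed at 0 in all libraries. Of 9 further podosome genes, 4 differed over the 4 ages and 5 were lower at 400 d than at 60 d. Without library 2 or library 3 of 400 d, 2 of them differed over the 4 ages, and 2 to 5 did with any 1 library left out. *SH3PXD2A*, the paralog of *SH3PXD2B*, changed by -1.38 (adjusted p = 0.0040, edgeR) with means of 4.69 ± 0.566, 3.42 ± 0.805, 2.06 ± 0.194 and 1.86 ± 0.578 FPKM in ascending order of labelled age (SD, n = 3). The kinase *SRC* changed by -1.51 and the protease *ADAM15* by -1.36.

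**Figure D3:**
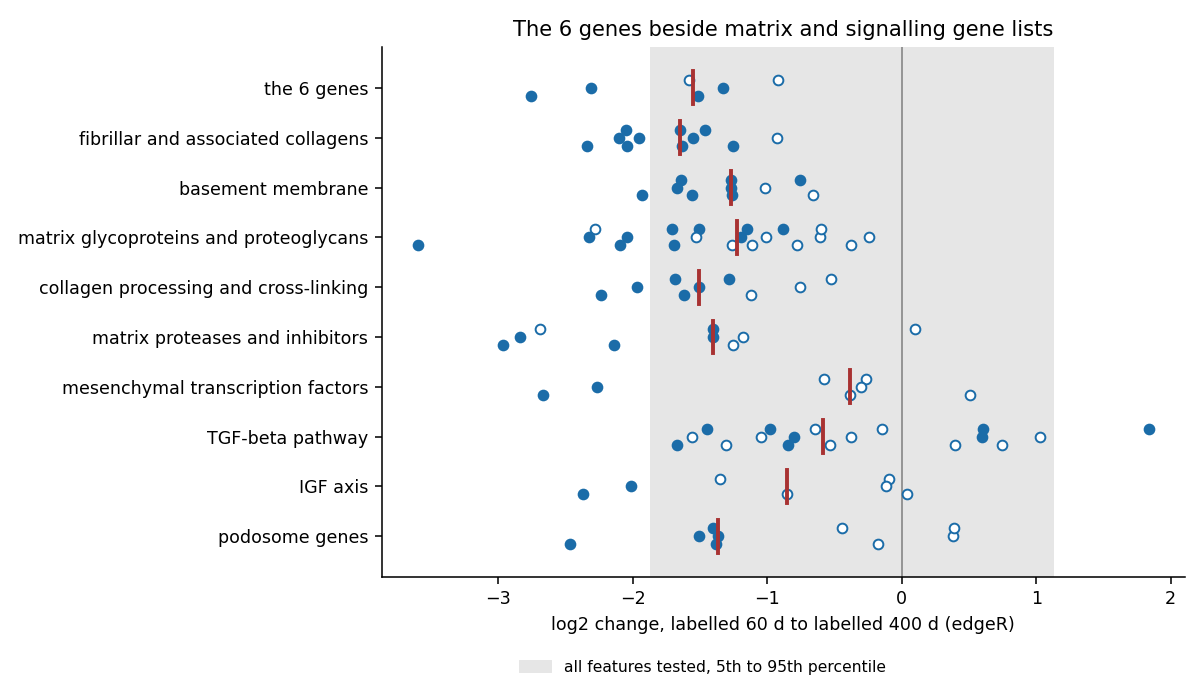
Log2 change from labelled 60 d to labelled 400 d in edgeR for the 6 genes and for the genes of each list, with filled points past the test, red lines at the medians and the grey band from the 5th to the 95th percentile of all features tested. The collagens (median -1.65) lie left of 0 throughout, and the TGF-beta pathway has genes on both sides.

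Markers of several cell types moved with the 6 genes, and their part in the results was not tested. Of 11 fibroblast or fibro-adipogenic markers, 5 could be matched, *DCN*, *LUM*, *COL1A2*, *COL3A1* and *PI16*, with no library at 0, of which 4 also stand in the matrix lists above. Their summed FPKM lay between 648 and 2111 for the 60 d libraries, between 999 and 1448 for those of 120 d, between 497 and 731 for 240 d and between 217 and 507 for 400 d. Of the 5 markers, 3 differed over the 4 ages, *COL1A2*, *COL3A1* and *PI16*, beside 19.8% of all features. *DCN* (adjusted p = 0.254, edgeR) and *LUM* (adjusted p = 0.143, edgeR) did not pass. With 1 library left out the count ran from 1 to 4, and it was 1 without library 2 of 400 d. The highest sum, 2111, was that of library 1 of 60 d, where *FBLN1*, *IGFBP7* and *NREP* also had their highest levels. The lowest sum, 217, was that of library 2 of 400 d, where *FBLN1*, *IGFBP7* and *SH3PXD2B* had their lowest.

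The counts of the other cell types stand beside 19.8% of all features that differed over the 4 ages, and they moved by up to 2 with 1 library left out. Of the tendon markers tested, 2 of 3 differed over the 4 ages, with *TNMD* at -3.25 and *KERA* at -2.41 from 60 to 400 d. *TNMD* had 0 to 4 counts in each library of 240 and 400 d, near the floor of 3. It entered the test through the ages at which it was high, so that nothing is read from its change. Of 5 pericyte or smooth muscle markers, 3 differed, with a sum that lay between 219 and 370 for the 60 d libraries, between 202 and 227 for those of 120 d, between 140 and 296 for 240 d and between 116 and 167 for 400 d. Of 4 endothelial markers, 1 differed, *ESAM*, and their sum lay between 58.1 and 117 for the 60 d libraries, between 60.1 and 84.5 for those of 120 d, between 51.5 and 75.7 for 240 d and between 31.0 and 52.1 for 400 d. Of 5 leukocyte markers 2 differed, *ITGB2* and *CD14*, with a sum that lay between 18.2 and 29.2 for the 60 d libraries, between 18.1 and 61.5 for those of 120 d, between 9.93 and 18.7 for 240 d and between 4.72 and 11.8 for 400 d.

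Of 3 genes listed for satellite cells, *MYF5*, *CALCR* and *CHRNA1*, 1 differed, *CALCR*. *PAX7* could not be matched, and *CHRNA1* is not particular to these cells. Their sum lay between 5.50 and 6.94 for the 60 d libraries, between 3.64 and 9.94 for those of 120 d, between 1.84 and 2.87 for 240 d and between 1.91 and 2.55 for 400 d. Of 3 red blood cell markers 2 differed, *HBB* and *ALAS2*. The red blood cell sum lay between 219 and 1182 for the 60 d libraries, between 32.1 and 220 for those of 120 d, between 136 and 277 for 240 d and between 57.3 and 101 for 400 d, with the highest again in library 1 of 60 d. Of the adipocyte markers *PLIN1*, *CIDEC* and *PPARG*, 0 of 3 differed, and *PLIN1* had an adjusted p of 0.672 in edgeR. The muscle fibre markers *DES* and *PYGM* were high in all libraries, at an FPKM of 2000 to 4558 and 5137 to 9460. *ACTA1*, skeletal actin, was listed at 0 in 7 libraries, all of 60 d among them, and held 5.64% to 8.57% of the counts in the other 5, so that its values were not read as a fibre marker.

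Set beside the summed fibroblast markers library by library, the 6 genes differed in how closely they followed. The sum has no weights, so that it lies mainly with *COL3A1*, *DCN* and *COL1A2*. In library 1 of 60 d these had an FPKM of 1142, 446 and 413 in a sum of 2111, against 63.5 for *LUM* and 46.9 for *PI16*. Over the 12 libraries, which share their depth and age groups with the markers, Pearson's r on the log2 scale was 0.94 for *FBLN1*, 0.92 for *IGFBP7*, 0.70 for *NREP*, 0.65 for *SNAI2*, 0.51 for *TWIST1* and 0.45 for *SH3PXD2B*. With the mean of each age taken out, r was 0.90 for *FBLN1* and 0.88 for *IGFBP7*, 0.48 for *NREP*, 0.17 for *SNAI2*, -0.01 for *TWIST1* and -0.30 for *SH3PXD2B*. These values describe the libraries and carry no test. Other marker sums came close for *FBLN1* and *IGFBP7*, and were above the fibroblast sum for the rest. Over the 12 libraries, *NREP* had an r of 0.80 with the satellite cell sum and *SH3PXD2B* of 0.82 with the endothelial sum. With the leukocyte sum, *TWIST1* had an r of 0.74 and *SNAI2* of 0.69. With the mean of each age taken out, these were -0.11, 0.60, 0.48 and 0.27 in the same order. *FBLN1* had an r of 0.87 with the pericyte or smooth muscle sum and 0.78 with the tendon sum (0.73 and 0.78 with the mean of each age taken out), and *IGFBP7* of 0.83 with the leukocyte sum (0.69). With the mean of each age taken out, *TWIST1* had an r of 0.61 and *SH3PXD2B* of 0.60 with the endothelial sum, while *NREP* was at -0.48.

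**Figure D4:**
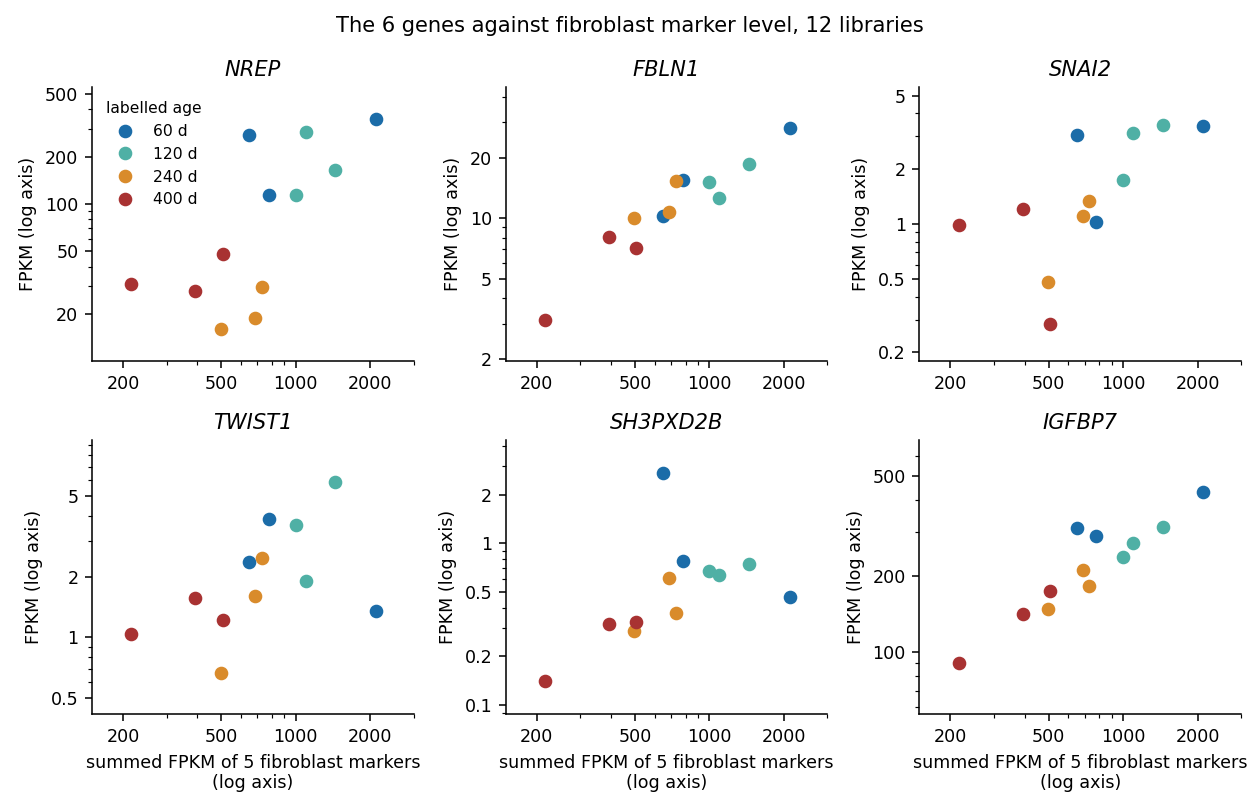
FPKM of each gene against the summed FPKM of 5 fibroblast markers (both log axes), with 1 point per library coloured by labelled age. *FBLN1* and *IGFBP7* follow the marker sum across all ages (r = 0.94 and 0.92), while *NREP* lies at 16.1 to 29.5 in the 240 d libraries, whose marker sums of 497 to 731 are near those of libraries 2 and 3 of 60 d (780 and 648), with an *NREP* of 115 and 273.

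As a level per 1000 FPKM of the 5 markers, *FBLN1* stayed within a narrow range, between 13.2 and 19.8 for the 60 d libraries, between 11.6 and 15.1 for those of 120 d, between 15.7 and 20.9 for 240 d and between 14.1 and 20.5 for 400 d. *IGFBP7* lay between 205 and 479 for the 60 d libraries, between 216 and 247 for those of 120 d, between 249 and 308 for 240 d and between 345 and 416 for 400 d, with means of 351, 234, 285 and 374 in ascending order of labelled age. On this scale its libraries of 60 d overlapped with those of every other age. Those of 120, 240 and 400 d did not overlap and rose in that order, narrowly between 120 and 240 d. *NREP* was at 147 to 421 at 60 d and 114 to 263 at 120 d, against 27.5 to 40.4 at 240 d and 72.0 to 144 at 400 d. The libraries of 240 d were below all others on this scale, while those of 400 d were below all of 60 d and overlapped with those of 120 d in library 2. The markers themselves changed with age, and the ratio was not tested.

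Among themselves, the 6 genes varied together across the 12 libraries. Pearson's r of log2 CPM was above 0 in all 15 pairs, from 0.45 for *NREP* with *TWIST1* to 0.87 for *FBLN1* with *IGFBP7*, with a median of 0.54. With the mean of each age taken out it ran from -0.47, for *NREP* with *TWIST1*, to 0.76, for *FBLN1* with *IGFBP7*, with a median of 0.16 and 12 of 15 above 0. Pairs of the same libraries are not independent, and no p is given.

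The features with a symbol whose log2 CPM was most like that of each gene over the 12 libraries were picked from all 13314 tested, so that a high r is given by the choice. *ENHO*, which encodes the secreted peptide adropin, was nearest to *NREP*, with r = 0.99 and 0.96 with the mean of each age taken out. Its mean FPKM was 251, 150, 18.2 and 23.6 in the order of the labelled ages. *PRXL2B* (0.97) and *TTYH2* (0.96) came next. For *FBLN1* they were *VSTM4* (0.97), *CLSTN1* (0.97) and *MPZL1* (0.96), and for *IGFBP7* they were *RCN1* (0.98), *SMO* (0.98), the transducer of Hedgehog signals, and *SCARF2* (0.97).

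Among the 3 features nearest to *SNAI2* were *PHLDA2* (r = 0.90) and *TLE3* (0.89). *TWIST1* was nearest to *TNFAIP1* (0.95), *DISC1* (0.92) and *SPTLC2* (0.91). *SH3PXD2B* was nearest to *KIRREL1* (0.97), *VASH2* (0.94) and *PTBP1* (0.94).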

How the data were processed

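RNA from LD muscle of 12 Laiwu pigs was sequenced by the authors in paired-end runs of 125 cycles from libraries of a kit that does not mark strand, and the reads were mapped to Sscrofa10.2 with TopHat2. The submitters' processing notes also name Bowtie 0.12.2, Cufflinks and mm8, a mouse build that is not that of the loci. The authors deposited fragment counts, as whole numbers without normalization, and FPKM values from Cufflinks, scaled by transcript length and mapped fragments. A normalized value in 12 further deposited columns was not used. Versions of TopHat2 and Cufflinks are not given in the sources used here.

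Each labelled age is 1 sample whose file holds 3 libraries, taken as the 3 pigs per age of the study. Counts of features with a mean of at least 10 at any age (13314 of 22658) were fitted over all 12 libraries in edgeR 4.0.16 (R 4.3.3, quasi-likelihood test), with TMM scaling, a test over the 4 ages and 6 contrasts, and Benjamini-Hochberg adjustment over all features tested. A call was an adjusted p of 0.05 or below, in every comparison unless stated. The pipeline was tested on simulated data. Exact permutation tests over the 4 ages used the spread of the group means on log2(FPKM + 0.1). Those between 2 ages were two-sided, on the difference of mean FPKM. Totals were 9713813 to 13325327 counts, and the floor of 3 counts equals 0.225 to 0.309 CPM, which covers counting error only. Symbols came from a table of Ensembl identifiers that named 11472 features and 3 of the 6 genes. The other 3 were matched by the identifiers of the study's lists.

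All 6 genes were named, with up to 3 genes per list (smallest adjusted p over the 4 ages, or, where none passed, the highest mean FPKM) and 3 features most like each gene. Some genes that this rule names are not reported here. *ZEB1*, *CIDEC*, *PPARG*, *DCN*, *LUM*, *DES*, *PYGM*, *MYF5*, *CHRNA1* and *IGFBP1* were named after their values were seen. The members and lists were chosen with earlier results of these data known. Alternatives were size factors of DESeq2 (RLE), no filter or at least 50 counts, DESeq2 1.42.0, limma 3.58.1 on log2(FPKM + 0.1) or log2(FPKM + 1), a false discovery rate of 0.01 with a log2 change of 1, only the 2 ages of a contrast in the fit, the ages of the study's list of differentially expressed genes, CPM in place of FPKM, each library left out, and, added after seeing the data, library totals. Tables were handled with Python 3.11.15, scipy 1.17.1, numpy 2.4.6, pandas 2.3.3 and, for plots, matplotlib 3.10.9.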

Additional observations from a re-analysis of the deposited data

How the results depend on the processing

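The number of the 6 genes past the test over the 4 ages was 3, and 5 with DESeq2. It was 2 with library totals and in both limma fits, 1 at a false discovery rate of 0.01, and 2 to 4 with 1 library left out. From 120 to 240 d it was 1, and 0 at the stricter threshold, 2 with the ages of the list of differentially expressed genes and 0 to 1 with 1 library left out. From 60 to 240 d it was 2, and 1 with library totals, without the count filter, with only the 2 ages in the fit or at the stricter threshold. It was 3 with DESeq2, 4 with the ages of that list and 1 to 2 with 1 library left out. From 60 to 400 d it was 4, and 2 with only the 2 ages in the fit or at the stricter threshold. It was 3 in limma on log2(FPKM + 1) or with the ages of that list. With 1 library left out it was 2 to 5, the 2 without library 2 of 400 d. From 120 to 400 d it was 3, and 4 with DESeq2 or with only the 2 ages in the fit. It was 0 at the stricter threshold and 1 with the ages of that list. With 1 library left out it was 0 to 4, the 0 without library 2 of 400 d and the 1 without libraries 2 or 3 of 120 d or 3 of 400 d. For the pairs 60 with 120 d and 240 with 400 d it was 0 in all these settings. For single genes and pairs, 778 of 851 alternative values kept their direction and side of the threshold, 58 lost a call, 10 gained 1 and 5 reversed. Only 10 of the 36 comparisons of a gene between 2 ages, and 3 of the 6 tests over the 4 ages, had a call to lose. The 778 values thus say little of how stable the calls were. The 5 reversed values were log2 changes with 1 library left out. From 60 to 120 d, *FBLN1* ran from -0.49 to 0.24, above 0 without library 1 of 60 d, *SNAI2* from -0.21 to 0.48, below 0 without library 2 of 60 d, and *SH3PXD2B* from -1.35 to 0.12, above 0 without library 3 of 60 d. *SNAI2* between 240 and 400 d ran from -0.66 to 0.16, the latter without library 1 of 400 d, and stood at 0.0027 without library 1 of 240 d. None of these passed the test. The causes were not tested.

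*NREP* and *IGFBP7* passed over the 4 ages in all 19 alternative fits, with an adjusted p of 4.4e-15 to 0.0087 and 5.0e-05 to 0.0407, and *TWIST1* in 0 of 17. Over the 4 ages, DESeq2 called 4177 features where edgeR called 2639. It called 1767 where edgeR called 682 and limma on log2(FPKM + 0.1) 414 for 120 against 240 d, and 2356 where edgeR called 1509 for 60 against 240 d. Library totals moved the median log2 change of all features most from 60 to 120 d, from -0.01 to 0.13. Levels relative to the mean of a gene moved by less than 1 SD with TMM-scaled CPM. No paired analysis was possible because the pigs of the 4 ages were different animals. The counts of *SNAI2* and *TWIST1* limit what can be seen of them.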
